A study of Phalaenopsis x intermedia with 4 samples.

Results

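The plants described here were the F1 progeny of P. aphrodite (Pa) and P. equestris (Pe), a hybrid named P. Intermedia, placed in groups by their deposited genotype call at 1 SNP on chromosome 5, S5_43867748. This SNP is 1 of 6 that the study tied to magenta flower color. Of the 90 progeny columns, 41 were called A at S5_43867748 and 41 were called T, so that 82 of 90 could be grouped and 8 had no call. Genotypes had been obtained from leaf DNA by genotyping-by-sequencing (GBS), which reads only the ends of restriction fragments, in 4 multiplexed libraries, with HaeIII as 1 enzyme of each pair and HinP1I or ApeKI as the other. All plants were full sibs of the same cross and carried no treatment, so the groups were defined by this call alone. Flower color was not analysed here, so no color is given for any plant or group.

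Magenta in Phalaenopsis flowers comes from anthocyanins, pigments made by the flavonoid pathway and switched on in petal and lip by transcription factors of the MYB and bHLH families. Pa has mostly white flowers, and the paper lists red, white and light blue-purple flowers for Pe. In an F1 family of outcrossing parents, the alleles that segregate are those at which a parent is itself heterozygous, and each such parent hands on 1 of its homologous chromosomes to each plant. SNPs that lie close together on that chromosome stay together unless a crossover falls between them, and such a run of co-inherited alleles is called a haplotype. Comparing A with T progeny at all other SNPs therefore asks how far the haplotype around S5_43867748 reaches, and whether SNPs elsewhere in the genome sort with it.

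At S5_43867748 Pa was called T and Pe was called A, both homozygous. A plant with 1 allele from each such parent would be heterozygous, but none of the 82 called progeny was (0 heterozygous calls). The call at S5_43867748 chose the groups and is given as a description only. The value compared at each other SNP was the dosage, meaning 0, 1 or 2 copies of the minor allele. The difference is the mean dosage in A progeny minus that in T progeny. It was tested by an exact two-sided permutation test and adjusted by the Benjamini-Hochberg method over all SNPs tested. As a size of the difference, r2 is the squared correlation of dosage with group, which is 1 when the groups hold opposite homozygotes and 0 when their mean dosages are equal.

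The completeness of calls was compared between the groups first, and no difference was detected. Over the SNPs tested, missing calls made up 6.88% ± 6.55 of calls per plant in A progeny and 7.70% ± 7.41 in T progeny (SD, n = 41 each, permutation p = 0.599). Heterozygous calls made up 24.5% ± 4.74 in A progeny and 24.1% ± 5.12 in T progeny (SD, n = 41 each, permutation p = 0.710). The cross contains progeny with very few calls over the whole table, defined as 50% or more missing. The other progeny, referred to as well-called, numbered 30 of 41 among A progeny and 29 of 41 among T progeny (exact two-sided Fisher p = 1).

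Of 7643 SNPs tested on chromosomes 1 to 19, 62 differed in dosage between A and T progeny at an adjusted p under 0.05, or 0.811% of those tested. The minor allele was the more frequent one in A progeny at 38 of them (0.497% of those tested) and in T progeny at 24 (0.314%). At an unadjusted p under 0.05 there were 354 (4.63%). The SNPs that differed lay on just 3 chromosomes, with 40 of 590 tested on chromosome 5, 20 of 3556 on chromosome 2 and 2 of 1095 on chromosome 1. None of 2402 on the other 16 chromosomes did by the exact permutation test, where 78 (3.25%) had an unadjusted p under 0.05 and the lowest adjusted p was 0.188. The highest r2 on those 16 chromosomes was 0.135, and the lowest among the 62 was 0.172. The 62 SNPs fell into 38 windows of 1 kb, 24 on chromosome 5, 13 on chromosome 2 and 1 on chromosome 1. SNPs within a window can come from the same read and are not separate observations. The windows had fixed bounds, so close SNPs in adjoining windows, such as S5_43702986 and S5_43703014, can share a read too.

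**Figure D1:**
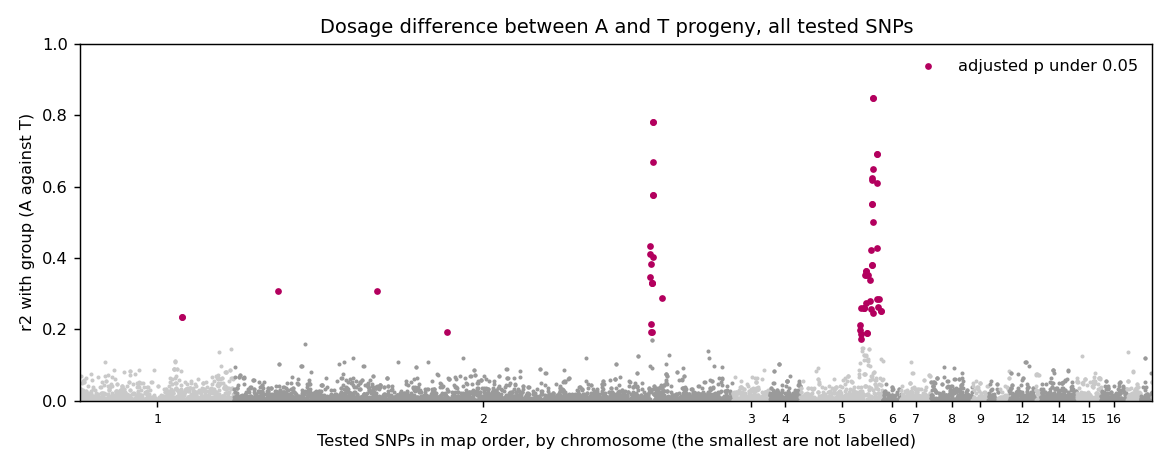
Each point is 1 of the 7643 SNPs tested, in map order along the horizontal axis with chromosomes in alternating grey, and its height is r2 between dosage and group (A against T progeny). The 62 SNPs with an adjusted p under 0.05 are in magenta, in a peak on chromosome 5 up to 0.849, a narrow peak on chromosome 2 up to 0.783, and a few single points.

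On chromosome 5 the strongest association lay 54.2 kb to the left of the grouping SNP, at S5_43813578, another of the magenta SNPs. Among A progeny 36 plants were homozygous for the minor allele G and 2 for the major allele T, whereas among T progeny 1 plant was homozygous for G and 37 for T. No plant was called heterozygous. Mean dosage was 1.89 ± 0.453 in A progeny and 0.0526 ± 0.324 in T progeny (SD, n = 38 each), a difference of 1.84 with r2 of 0.849 (adjusted p = 1.52e-14, exact permutation test). The groups thus held almost entirely opposite homozygotes, with 3 plants of 76 called against their group.

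S5_43788074 lay farther out on the same side, at 79.7 kb. The A progeny comprised 13 minor homozygotes, 24 heterozygotes and 2 major homozygotes, and the T progeny 1, 0 and 37. The minor allele was carried by 94.9% of A progeny and 2.63% of T progeny, a separation close to that at S5_43813578. Most A progeny were heterozygous there, and the dosage difference was 1.23 (r2 = 0.648, adjusted p = 3.09e-13, exact permutation test). S5_43458644, 409 kb to the left, had the same make-up. Its A progeny comprised 14 minor homozygotes, 23 heterozygotes and 3 major homozygotes, and its T progeny 1, 0 and 38 (r2 = 0.623, adjusted p = 6.81e-13, exact permutation test). At these SNPs a heterozygous call belonged to A progeny without exception, in contrast to S5_43813578 with its homozygous calls only.

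On the right side no tested SNP lay between 1 kb and 500 kb from the grouping SNP, and the 9 tested between 500 kb and 1000 kb did not pass the exact permutation test (highest r2 0.0808). Beyond that gap the association was again strong, with the minor allele now in T progeny. At S5_45398430, 1531 kb to the right, 2 A progeny were minor homozygotes and 33 major homozygotes, against 32 and 4 T progeny, with no heterozygote. The difference was -1.66 (r2 = 0.693, adjusted p = 1.44e-10, exact permutation test). At the magenta SNP S5_45345022, 1477 kb to the right, 1 A plant was a minor homozygote and 39 were major homozygotes, against 30 and 8 T plants (r2 = 0.610, adjusted p = 2.83e-10, exact permutation test). At S5_45647571, also a magenta SNP, the T progeny were mostly heterozygous, with 0 minor homozygotes, 5 heterozygotes and 35 major homozygotes among A progeny and 6, 26 and 8 among T progeny (r2 = 0.427, adjusted p = 1.99e-07, exact permutation test). S5_46455357, the last magenta SNP of chromosome 5, had 8 minor and 31 major homozygotes among A progeny, against 28 and 10 among T progeny (r2 = 0.284, adjusted p = 0.000575, exact permutation test). These magenta SNPs were chosen in the study for the same traits in the same plants, so their sorting with S5_43867748 is no independent evidence of linkage.

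Nearness did not by itself give a strong association. The neighbors S5_43702986 and S5_43703014, 165 kb to the left, had the same class counts, with 31 minor and 8 major homozygotes among A progeny and 6 and 28 among T progeny. Their r2 of 0.381 (adjusted p = 2.78e-05, exact permutation test) was below that of S5_43458644, which lies farther away on the same side. The only tested SNPs within 1 kb were S5_43867946, with r2 of 0.501, and S5_43867969, with r2 of 0.246. They may share a read with the grouping SNP and are given as a description. At S5_43867946 the A progeny comprised 5 minor homozygotes, 1 heterozygote and 31 major homozygotes, and the T progeny 20, 20 and 0.

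The SNPs that differed on chromosome 5 stretched from position 37545373 to 47230748 of the deposited coordinates, over 9.69 Mb. They reached 6.32 Mb to the left and 3.36 Mb to the right. The sources used here do not give the genome build of these coordinates, and no gene annotation was used, so genes, exons and introns in this span are not named. Within the span 40 of 155 tested SNPs differed. The span ends at the outermost SNPs that differed, so that none differed outside it follows from this choice. To its left lay 423 tested SNPs (highest r2 0.0914, 13 with an unadjusted p under 0.05, exact permutation test). To its right lay 12 (highest r2 0.110, 1 with an unadjusted p under 0.05). The right end therefore rests on few SNPs. SNPs with r2 of at least 0.5 beyond 1 kb numbered 10 and lay closer in, from S5_43458569 to S5_45398475, a stretch of 1.94 Mb.

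At the left end, S5_37545373, 26 A progeny were minor homozygotes, 1 was heterozygous and 14 were major homozygotes, against 8, 0 and 33 T progeny (r2 = 0.211, adjusted p = 0.00604, exact permutation test). At the right end, S5_47230748, the counts were 18, 0 and 22 among A progeny and 1, 0 and 40 among T progeny (r2 = 0.252, adjusted p = 0.000565, exact permutation test). Both ends still separated the groups, but many plants carried the allele of the other group. In well-called progeny alone the ends no longer passed, with an adjusted p of 0.168 at S5_37545373 and 0.134 at S5_47230748 by the exact permutation test, nor did S5_46455357 (0.0932), and the span was then 7524400 bp.

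The association fell unevenly with distance. Between 1 kb and 100 kb to the left 3 of 4 tested SNPs differed, and between 100 kb and 500 kb 8 of 17 did. From 2000 kb to 4000 kb the numbers were 6 of 25 to the left and 3 of 21 to the right, and from 4000 kb to 7000 kb they were 10 of 66 and 0 of 10. Farther left than 7000 kb none of 401 did. Median r2 over all tested SNPs of a band was 0.749 in the nearest band on the left, 0.0772 in the next, and 0.0228 between 4000 kb and 7000 kb. SNPs that sorted with the groups were thus interspersed with others for which no difference was detected.

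**Figure D2:**
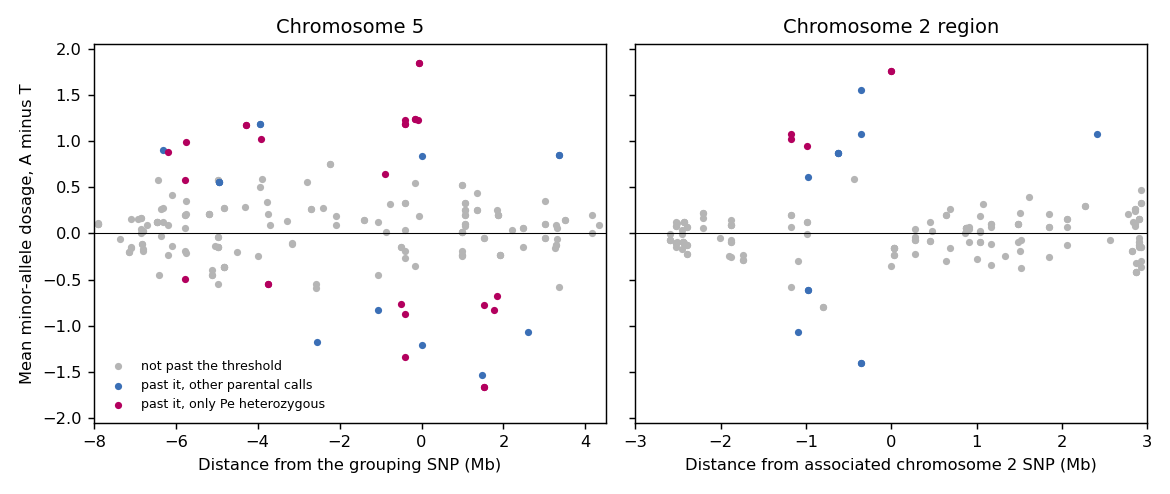
The vertical axis is mean minor-allele dosage in A progeny minus that in T progeny, for each tested SNP within the window shown. The left panel gives distance in Mb from the grouping SNP on chromosome 5 and the right panel distance in Mb from S2_195281745 on chromosome 2. SNPs past an adjusted p of 0.05 are in magenta where Pe alone was heterozygous and in blue otherwise, and SNPs not past it are in grey. On chromosome 5, 24 of the colored points lie above 0 and 16 below.

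The SNPs of the span were then sorted by the genotype of the parents. Within the chromosome 5 span, 26 of the 37 tested SNPs at which Pe alone was heterozygous differed between A and T progeny (70.3%). Among SNPs at which Pa alone was heterozygous 1 of 20 did, among SNPs with opposite homozygous parents 6 of 77, and among SNPs with the same homozygote in both parents 4 of 13. Over all 7643 SNPs Pe alone was heterozygous at 23.4%, and over the 62 that differed at 51.6%. Many progeny calls could not arise from 1 gamete of each parent as the parents were called. Over the 32 SNPs that differed and were heterozygous only in Pe, such calls made up 32.0% of calls in A progeny and 22.9% in T progeny, and over the 58 that differed with both parents called, 43.1% in A progeny and 40.8% in T progeny. Over all 1787 tested SNPs heterozygous only in Pe they made up 19.5% in A progeny and 19.5% in T progeny. The SNPs of this class that differed thus held a larger share of such calls, most of all in A progeny. Over all 7403 tested SNPs with both parents called they made up 41.9% in A progeny and 41.99% in T progeny. At S5_43813578, for example, Pa was homozygous for T, but 36 A progeny were homozygous for G. Of the 26, the minor allele was the more frequent one in A progeny at 15 and in T progeny at 11, so that the rarer alleles of both groups were seen along the span. These are counts over linked SNPs and were not tested.

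Of the 11 SNPs heterozygous only in Pe that did not differ, some lay beside one that did. S5_38123355 had r2 of 0.0276, and S5_38123176, less than 1 kb away, had r2 of 0.259. S5_46338625 and S5_46338650, near the right end, had r2 of 0.00254.

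Over the 24 SNPs on chromosome 5 with the minor allele more frequent in A progeny, the share of plants carrying it had a median of 69.5% in A progeny and 12.9% in T progeny. Over the 16 with the minor allele more frequent in T progeny, the medians were 10.96% in A progeny and 72.2% in T progeny. These shares describe SNPs already chosen for their difference. Heterozygous calls made up 15.5% of calls in A progeny and 14.04% in T progeny over the 62 SNPs, and 18 of the 62 had no heterozygote in either group. Missing calls made up 4.37% in A progeny and 6.41% in T progeny over the same SNPs. How many of the calls had been filled in by the authors' imputation is unknown.

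The second region lay on chromosome 2, from position 194099972 to 195281884, a stretch of 1.18 Mb in which 16 of 27 tested SNPs differed. Only 4 of 3529 tested SNPs elsewhere on chromosome 2 did, a contrast that follows in part from bounds set at SNPs that differed. The strongest was S2_195281745, the only magenta SNP on this chromosome. Among A progeny 36 plants were homozygous for its minor allele C and 5 for the major allele G, whereas all 41 T progeny were homozygous for G. Pa was called homozygous for C there and Pe heterozygous. Homozygous calls of either allele were thus not all open to this cross, and a homozygous G call could not arise from the parents as called. The minor allele was carried by 87.8% of A progeny (exact Clopper-Pearson 95% interval 73.8 to 95.9) and by 0 of 41 T progeny, which allows a share of up to 7.32%. Mean dosage was 1.76 ± 0.663 in A progeny and 0 in T progeny (SD, n = 41 each), with r2 of 0.783 (adjusted p = 1.52e-14, exact permutation test). Only S5_43813578 and the neighbor S5_43813590 had a higher r2, and the neighbor S2_195281884 had the same class counts. Being a magenta SNP, it too was chosen for the same traits.

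Others in the region were not among the SNPs the study selected. At S2_194922030 the A progeny comprised 34 minor homozygotes, 1 heterozygote and 5 major homozygotes, and the T progeny 0, 7 and 33 (r2 = 0.669, adjusted p = 9.72e-12, exact permutation test). At the nearby S2_194921903 the minor allele was instead the T progeny's, with 4 minor homozygotes, 3 heterozygotes and 33 major homozygotes among A progeny and 29, 9 and 2 among T progeny (r2 = 0.577, adjusted p = 6.09e-10, exact permutation test). Farther left, S2_194100121 had 16 minor homozygotes, 17 heterozygotes and 8 major homozygotes among A progeny, against 2, 1 and 38 among T progeny (r2 = 0.434, adjusted p = 1.12e-07, exact permutation test). S2_194099972 and S2_194295433 had the same make-up, with r2 of 0.411 and 0.382. At S2_194661430 the minor allele was found in A progeny only, in 22 of 40 against 0 of 38 T progeny, a count of 0 that allows a share of up to 7.89% (r2 = 0.329, adjusted p = 2.92e-06, exact permutation test). At S2_194182654 it was mostly in T progeny, with 2 minor homozygotes, 1 heterozygote and 38 major homozygotes among A progeny and 21, 3 and 14 among T progeny (r2 = 0.346, adjusted p = 2.09e-05, exact permutation test).

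Sorted by parental calls, all 5 SNPs heterozygous only in Pe in this region differed between the groups, and so did 7 of 16 with opposite homozygous parents and 3 of 3 with the same homozygote in both. Of the SNPs heterozygous only in Pa 0 of 2 passed the exact permutation test.

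Within the 90 progeny the chromosome 2 SNPs were also compared with chromosome 5 and with each other. For S2_195281745 the highest r2 of dosages was 0.767 on its own chromosome beyond 1 kb, with S2_194922030 (87 plants), and 0.761 on chromosome 5, with S5_43813578 (77 plants). For most other SNPs of the region the value on their own chromosome was the higher one, and for S2_194100121 the values were 0.844 with S2_194295433 (88 plants) and 0.623 with S5_39927482 (86 plants). These are descriptions over plants that share parents and libraries. Calls filled in by imputation are not marked in the table, so their part in these r2 values, and in those between chromosomes given next, could not be tested. As background, SNPs on different chromosomes normally assort independently in a cross.

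The 4 other SNPs that differed on chromosome 2 lay outside this region and were singled out after their values had been seen. S2_65973355 (r2 with group 0.308) had r2 of 0.878 with S5_39927482 on chromosome 5 over 78 progeny, 0.637 with S2_194100121 in the region above, but at most 0.0789 with any tested SNP within 5 Mb of itself. S2_24837369 (0.307) had r2 of 0.459 with S5_45345022 over 81 progeny, but at most 0.171 within 5 Mb. S2_105539323 (0.192) and S2_197694389 (0.288) completed the list, the last lying 2.41 Mb to the right of S2_195281745. The calls of these plants at S2_65973355 thus followed those at S5_39927482 more closely than those of its neighbors on the deposited map.

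On chromosome 1, S1_187456103 and its neighbor S1_187456127 had the same class counts. The minor allele T was homozygous in 1 A plant and in 17 T plants, with 0 heterozygotes among A progeny and 1 among T progeny. The remaining 40 A plants and 23 T plants were homozygous for G (difference -0.80, r2 = 0.236, adjusted p = 0.00132, exact permutation test). Its best match beyond 1 kb on chromosome 1 had r2 of 0.106 and its best on chromosome 5 had 0.212. By Bonferroni adjustment of the same exact p it did not pass.

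To follow the haplotypes plant by plant, a call was named A-type when the plant carried a minor allele that was more frequent in A progeny, or lacked one that was more frequent in T progeny, and T-type otherwise. This naming used the group difference itself and is a description. Across 5 closely sorting SNPs of chromosome 5 (S5_43458644, S5_43788074, S5_43813578, S5_45345022 and S5_45398430), 37 of 41 A progeny and 29 of 41 T progeny had no call of the other type. Across 24 SNPs of chromosome 5, 1 per window of 1 kb, the numbers fell to 7 of 41 A progeny and 5 of 41 T progeny, with a median of 2 calls of the other type in A progeny and 2 in T progeny. The 5 SNPs were chosen for their high r2 and are fewer, so that fewer calls of the other type at them follow from the choice.

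**Figure D3:**
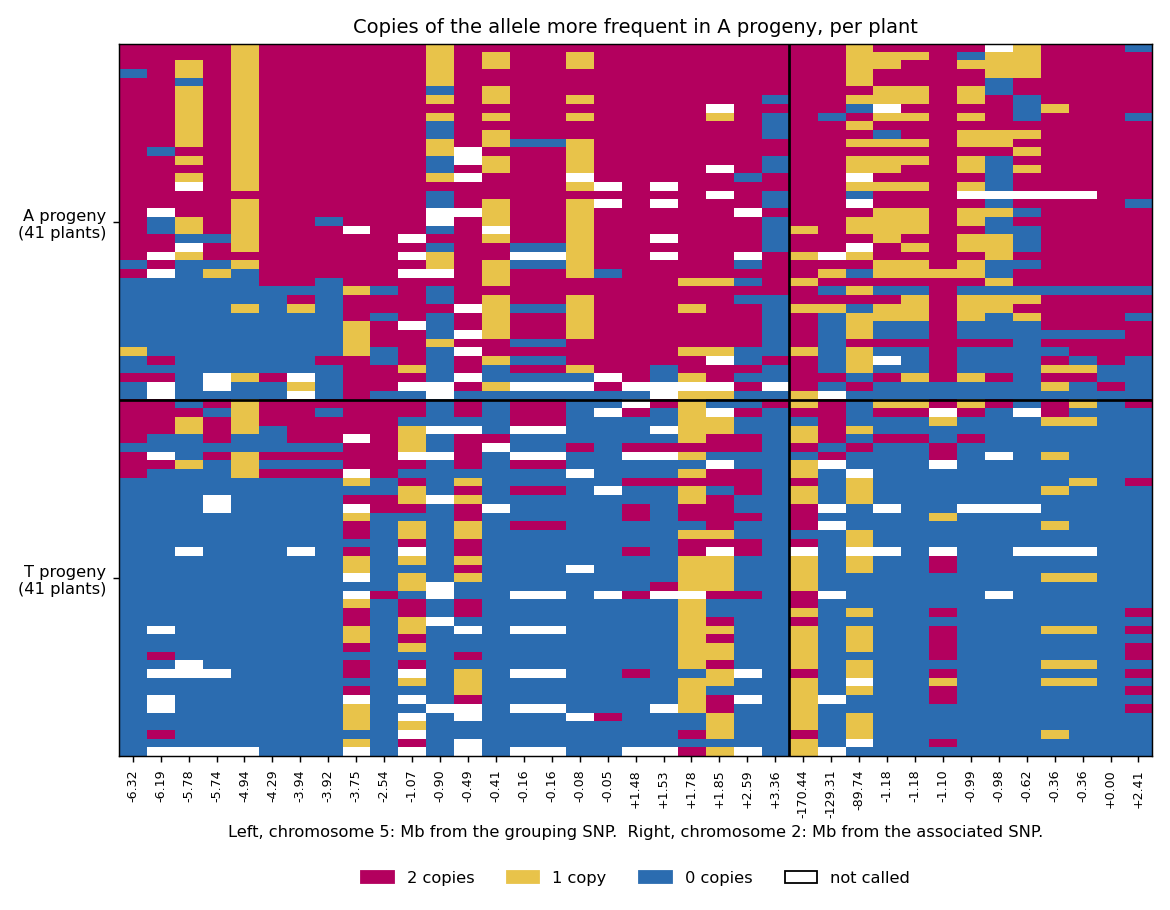
Each row is a plant, with the 41 A progeny above and the 41 T progeny below, and each column is a SNP of chromosome 5 or 2 that differed, 1 per window of 1 kb. Columns are labelled in Mb from S5_43867748 (left block) and from S2_195281745 (right block). Color gives copies of the allele more frequent in A progeny, and calls of the other group appear as runs, mostly at the left of the chromosome 5 block.

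Calls of the other type were few at most named SNPs close to the grouping SNP. Their share of called plants, both groups together, was 3.95% at S5_43813578, 3.90% at S5_43788074 and 5.06% at S5_43458644, but 19.2% at S5_43702986. These SNPs were named for a high r2 or as magenta SNPs, so low shares at them follow in part from the choice. Other SNPs that differed nearby had mixed shares. Within 1 kb the share was 32.9% at S5_43867969 and 7.79% at S5_43867946. On the left side it was 13.9% at S5_43458410 and 25.7% at S5_42970548, the latter 897 kb away. To the right it was 11.5% at S5_45345022, 8.45% at S5_45398430 and 28.4% at S5_47230748. To the left it was 24.4% at S5_39945519 and 26.8% at S5_37545373. At S5_47230748 it was almost all in A progeny, where 22 of 40 lacked the minor allele, against 1 of 41 T progeny that carried it.

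**Figure D4:**
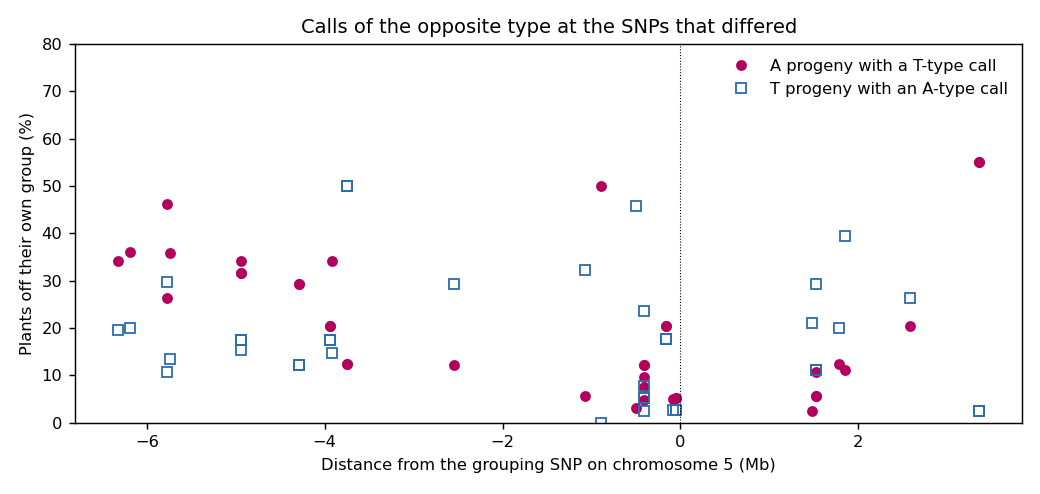
The horizontal axis is distance in Mb from the grouping SNP on chromosome 5, and the vertical axis is the share of called plants whose call was of the other group's type. Filled magenta circles are A progeny and open blue squares T progeny, at the SNPs beyond 1 kb that differed. Both are low at the nearest SNP, S5_43813578 (2 of 38 A plants and 1 of 38 T plants), and the points scatter widely elsewhere.

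Some plants changed type within the span. Among A progeny, PaPe6 had 14 T-type calls of 23, PaPe53 had 13 of 24, and PaPe13 had 11 of 24. At the 5 closely sorting SNPs PaPe6 and PaPe13 had 0 T-type calls and PaPe53 had 2. Among T progeny, PaPe11 had 15 A-type calls of 23 and PaPe30 had 14 of 22. PaPe27, a T plant, was A-type at 3 of its 4 closely sorting calls, and PaPe85, an A plant, was T-type at 3 of 4. These plants carried parts of both types.

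PaPe70 stood apart from all of them. It was called A at S5_43867748 but was T-type at 19 of 20 chromosome 5 SNPs, at all 4 closely sorting SNPs it was called at, and at all 9 SNPs of the chromosome 2 region. It is a progeny with few calls (93.1% missing over the whole table). Without it, 63 SNPs differed, 61 of them among the 62. At S5_43813578 r2 was then 0.896 (adjusted p = 1.34e-15, exact permutation test) and at S2_195281745 it was 0.820 (adjusted p = 1.34e-15), and none of the 20 named SNPs lost its call without this plant.

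The 5 A progeny with the T progeny's genotype at S2_195281745 were PaPe13, PaPe53, PaPe62, PaPe70 and PaPe85. On chromosome 5 they were T-type at 11 of 24, 13 of 24, 11 of 23, 19 of 20 and 11 of 20 SNPs. At S5_39945519, 3922 kb to the left of the grouping SNP, 5 of the 5 were T-type, against 9 of the 36 other A progeny. At S5_43458644, 409 kb to the left, 3 of 5 were T-type, against 0 of 35. At S5_45345022, to the right, the numbers were 1 of 5 and 0 of 35, and at S5_45398430 they were 2 of 4 and 0 of 31. The pattern was not uniform along the span. At S5_43813578, 54.2 kb to the left, the numbers were 1 of 4 and 1 of 34, and at S5_41325825 they were 2 of 5 and 3 of 36. The A plants whose chromosome 2 calls departed from their group were thus ones with many T-type calls on chromosome 5, where the median over all A progeny was 2. They were chosen by their calls, and no test was made.

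The association at the named SNPs was also compared between progeny with many and with few calls. At S2_195281745 the difference was 1.73 in well-called progeny and 1.82 in progeny with few calls, and at S5_43813578 it was 1.93 and 1.56. Of 20 named SNPs none showed a difference between well-called and few-call progeny after adjustment, the lowest p being 0.0508 (adjusted p = 0.987, two-sided permutation test, at S5_43813578). With few-call progeny alone, 11 A and 12 T plants, 4 SNPs differed by the exact permutation test, 2 on each of chromosomes 5 and 2.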

How the data were processed

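Leaf DNA of the progeny and parents had been sequenced single-end in 4 multiplexed GBS libraries. The authors deposited genotype calls as single letters with no scale of measurement, called by TASSEL-GBS from reads aligned with Bowtie 2 (default settings). Their label for the table also names imputation from nearest neighbors and a filter at 0.05 on minor allele frequency. The table merges both enzyme pairs and gives no read depth, so how many reads support a call is unknown, and no result is split by enzyme pair. Columns that could not be identified were not used (0 columns).

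Used were SNPs with 2 base alleles on chromosomes 1 to 19 with missing calls in at most 20% of the 92 plant columns. Another 7 such SNPs held 1 genotype class only and had no test. Groups came from the call at S5_43867748. The minor allele is the second one listed in the table. Dosage differences were tested by enumerating all tables of genotype class by group, and differences per plant with 100000 permutations. Plants, not SNPs, were the units, and p-values measure the spread between sibs of 1 cross. Shares have exact Clopper-Pearson intervals of 95%, and a share of 0 has a limit of 3 plants of the total, both covering counting error only. An r2 between SNPs needed at least 20 plants.

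Named are S5_43867748 and the other magenta SNPs, the 8 SNPs with the highest r2 on chromosome 5, on chromosome 2 and on all others among those past the threshold (beyond 1 kb, 1 per window of 1 kb), and the outermost SNPs on chromosome 5. Further SNPs and plants are named where their calls change type or where a count is small, after their values were seen. The groups, SNPs and lists were chosen with earlier results of these data known. Alternatives concerned missing calls, heterozygous calls, allele frequency, plants, parents, SNP density, test and adjustment. The dosage test was tested on simulated data. Flower traits were not analysed here. Scripts ran under Python 3.11.15 with scipy 1.17.1, pandas 2.3.3 and numpy 2.4.6. Some results for single plants are not reported here.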

Additional observations from a re-analysis of the deposited data

Results flagged for a closer look

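Entries that the table lists under chromosome label 20 were outside the comparisons above, which used chromosomes 1 to 19 alone. Of 537 such SNPs with 2 base alleles and missing calls in at most 20% of plants, 1 differed in dosage between A and T progeny, S20_65249984, with Benjamini-Hochberg adjustment over these SNPs alone. The A progeny comprised 27 minor homozygotes, 0 heterozygotes and 13 major homozygotes, and the T progeny 7, 1 and 33 (difference 0.98, r2 = 0.251, adjusted p = 0.00401, exact permutation test). It was singled out because it is a signal in data that no comparison used, and 12 of the 537 had an unadjusted p under 0.05.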

How the results depend on the processing

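The 62 SNPs of 7643 tested became 45 with heterozygous calls left out, 47 in well-called progeny (46 of them among the 62) and 47 by Bonferroni adjustment. When at most 10% of plants lacked a call, 44 of 4319 tested SNPs differed. When at most 50% did, 52 of 112612 differed. All 52 were among the 62, so the SNPs added by this wider limit held none that differed. Without 8 plants lying apart in MDS 61 differed, but PaPe15 and PaPe51 of these 8 were in neither group. The number was 62 with near-identical plants left out, and 62 of 7244 tested at a minor allele frequency of at least 0.1. It was 64 with the parents added and 63 by the Fisher-Freeman-Halton exact test (59 shared). The 10% limit left 23 SNPs that differed on chromosome 5. By Bonferroni adjustment 0 differed outside chromosomes 2 and 5 by the exact permutation test. With 1 SNP per 1 kb the numbers were 32 in all, 19 on chromosome 5, 12 on chromosome 2 and 1 elsewhere, among fewer SNPs tested. With few-call progeny only, chosen after the data were seen, they were 4, 2, 2 and 0, and the span on chromosome 5 was 329430 bp, over fewer plants. Of the 20 named SNPs 17 kept their call in well-called progeny and 3 in few-call progeny. None of the 20 reversed in the alternatives run on them. Over all SNPs with 2 base alleles the difference in heterozygous calls per plant was -0.103 percentage points (permutation p = 0.908), and its sign was reversed. The cause was not tested. No paired analysis was possible because the plates of the libraries share numbers but each plant has 1 merged column. Read depth is unknown.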

Other observations

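The 8 progeny with no call at S5_43867748 were placed in no group. At the 5 closely sorting SNPs of chromosome 5, PaPe15 was A-type at 2 of 2 calls and PaPe47 at 3 of 3. T-type at every such call they had were PaPe51 (4 of 4), PaPe71 (3 of 3), PaPe93 (2 of 2) and PaPe66 (1 of 1).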
